A study of Laxus oneistus with 16 samples.

Results

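The comparison described here is that of the marine nematode *Laxus oneistus* after anoxia with sulfide (AS) against hypoxia (H), with 3 RNA-seq libraries of each condition out of 16 in the series. Transcripts were members of the comparison when at least 10 reads were counted in all 3 AS or in all 3 H libraries, which held for 16121 of 27984 transcripts of the *de novo* transcriptome. Each library came from a batch of 50 freshly collected adult worms, wild animals coated by the bacterium *Candidatus* Thiosymbion oneisti, kept for 24 h in the dark in filtered seawater. The H vials were open to the air, and the study's text gives them as hypoxic, below full air saturation. The AS vials stood in a nitrogen-flushed bag with 11 µM sulfide added according to the sample labels. The study's text states the sulfide level otherwise, and which value holds is not settled here. AS and H therefore differ in oxygen and in sulfide, which cannot be told apart from these 6 libraries alone. The 4 libraries of anoxia without sulfide (A, replicates 1, 2, 3 and 5) entered the fit for its estimate of the spread, and the 6 of high oxygen (O, open vials in an aquarium bubbled with air) were used for a single description near the end. The field collection that each batch came from is not given per library in the sources used here, so collection and condition cannot be told apart either.

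Animals use oxygen as the last electron acceptor of the mitochondrial respiratory chain, and nematodes without oxygen can pass electrons through rhodoquinone to fumarate instead. Sulfide blocks cytochrome c oxidase, the complex that reduces oxygen, and is detoxified in mitochondria by enzymes that oxidise it and pass its sulfur to glutathione or other acceptors. *L. oneistus* moves between oxygenated and sulfidic sand layers, where its bacterial coat oxidises sulfide. Protein synthesis and muscle contraction are among the costliest uses of ATP, so ribosomal, muscle and energy metabolism genes are the groups usually looked at after loss of oxygen.

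Of the 16121 transcripts, 482 (2.99%) differed between AS and H. Here a transcript counts as called when edgeR's quasi-likelihood test gave a false discovery rate (FDR, Benjamini-Hochberg) no higher than 0.05 and the levels differed by 1.5-fold or more. Of these, 233 transcripts (1.45%) were upregulated in AS and 249 (1.54%) upregulated in H, a balance that turned with the scaling, to 170 against 250 with upper-quartile scaling and 286 against 218 with total counts. The smallest FDR was 0.00655, and 3591 transcripts had an unadjusted p under 0.05. The calls depended on single libraries. Without AS replicate 3, 0 transcripts passed the same edgeR test (2501 with an unadjusted p under 0.05), without AS replicate 1 there were 37, without H replicate 1 there were 34 and without H replicate 3 there were 94, whereas 786 passed without AS replicate 2. The spread of the A libraries also mattered, since 944 transcripts passed without A replicates 3 and 5 and 757 in a fit of AS and H alone.

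Most transcripts differed little. The median log2 fold change over all tested transcripts was 0.00, the quartiles were -0.32 and 0.34, and 1370 differed by 2-fold or more. Among the called transcripts, 129 were at least 2-fold higher in AS and 156 at least 2-fold higher in H, and 55 changed by at least 4-fold. Calls were more frequent at high levels, with 1.09% called in the lowest quartile of mean level and 4.69% in the highest. In the lowest quartile, 14 called transcripts were higher in AS and 30 in H, and in the highest quartile these numbers were 105 and 84. On log2 CPM (reads scaled to a library of 1000000 reads), Euclidean distances ranged from 69.6 to 89 between AS libraries, from 84.1 to 88.2 between H libraries and from 84.5 to 117 between AS and H. The pair of AS replicate 2 and H replicate 2 was the only one of the 9 between conditions that lay within the range of pairs of the same condition.

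**Figure D1:**
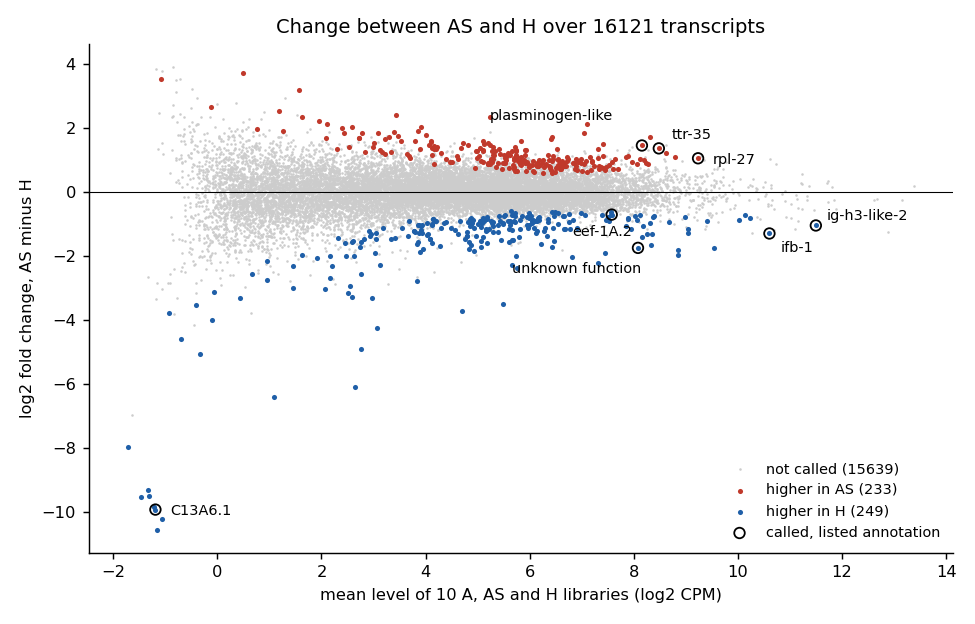
Log2 fold change between AS and H (y axis) against the mean level in log2 CPM (x axis) for 16121 transcripts. Red points are the 233 called higher in AS, blue points the 249 called higher in H, and circles mark the 8 called transcripts with a listed annotation. The group of blue points near the bottom left holds transcripts with 0 reads in every AS library, whose plotted fold change depends on the fit.

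Gene names were taken from the study's supplementary tables, of which the largest was read from a shortened copy, so a missing name is no property of a transcript. Of the transcripts with an annotation in these copies, 217 were tested and 8 (3.69%) were called, of which AS was higher for 3 and H for 5. The share over all tested transcripts was 2.99%, but 164 of the 217 were in the highest quartile of mean level, where 4.69% were called. The other 474 called transcripts (98.3%) carry no name here. Names come from matches in other species, each transcript is one assembled contig, and reads of near-identical copies may be divided between contigs. Levels are not corrected for transcript length and are therefore compared between libraries, not between genes. For each transcript, the locus tag follows without its leading word TRINITY.

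Of the 3 annotated transcripts upregulated in AS, the plasminogen-like transcript (DN88745_c0_g1_i1_9dedup) had the largest change. Plasminogen is known from vertebrates as the precursor of a secreted serine protease. Its level was 541, 407 and 548 CPM in AS replicates 1 to 3 and 240, 158 and 146 CPM in H replicates 1 to 3. All AS libraries lay above all H libraries (log2 fold change 1.46, SE 0.21, FDR = 0.00853, edgeR), and the A libraries lay between 239 and 305 CPM, below all AS libraries.

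The transcript *ttr-35* (DN86074_c0_g1_i2_9dedup) belongs to the transthyretin-related proteins, a family of small secreted proteins that is large in nematodes. It stood at 809, 451 and 609 CPM in AS and at 212, 225 and 288 CPM in H (log2 fold change 1.37, SE 0.24, FDR = 0.0168, edgeR). The lowest AS library was above the highest H library, and the A libraries were between 244 and 423 CPM, below all AS libraries. The third transcript was *rpl-27* (DN44548_c0_g1_i4_4dedup), which encodes a protein of the large ribosomal subunit. It had 1260, 713 and 934 CPM in AS against 500, 437 and 457 CPM in H (log2 fold change 1.06, SE 0.27, FDR = 0.0498, edgeR), a value just past the limit, and its A libraries, between 412 and 801 CPM, overlapped with both groups. AS replicate 1 was the highest and AS replicate 2 the lowest of the AS libraries in both transcripts.

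Among the 5 annotated transcripts upregulated in H, a pair of structural genes had the highest mean CPM of all called transcripts. The transcript *ig-h3-like-2* (DN54386_c1_g1_i1_4dedup) matches a secreted protein of the extracellular matrix that links cells to collagen in vertebrates. It was at 5270, 4220 and 3670 CPM in H and at 2200, 1810 and 2400 CPM in AS (log2 fold change -1.04, SE 0.22, FDR = 0.0322, edgeR). The intermediate filament gene *ifb-1* (DN94423_c2_g1_i3_9dedup), whose *Caenorhabditis elegans* counterpart helps to anchor the epidermis to cuticle and muscle, had 3100, 2030 and 1780 CPM in H and 983, 1120 and 721 CPM in AS (log2 fold change -1.29, SE 0.25, FDR = 0.0241, edgeR). H replicate 1 was the highest library for both, and no H library fell into the range of the AS libraries. The A libraries lay between 2070 and 3540 CPM for *ig-h3-like-2*, within the AS range or between both groups, and between 1440 and 2200 CPM for *ifb-1*, above all AS libraries and partly within the H range.

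The elongation factor *eef-1A.2* (DN10043_c0_g1_i1_4dedup), which brings aminoacyl-tRNA to the ribosome, was lower in AS by a smaller step. Its levels were 127, 160 and 150 CPM in AS and 274, 221 and 214 CPM in H (log2 fold change -0.70, SE 0.16, FDR = 0.0415, edgeR). A second *eef-1A.2* contig (DN53482_c0_g1_i2_4dedup) had 1760, 2080 and 2100 CPM in AS and 3470, 2530 and 2580 CPM in H and was not called (log2 fold change -0.53, SE 0.19, FDR = 0.122, edgeR), and the counting could divide reads between both. A transcript listed with unknown function (DN87263_c0_g1_i1_9dedup) stood at 634, 447 and 538 CPM in H and 188, 108 and 187 CPM in AS (log2 fold change -1.74, SE 0.41, FDR = 0.0419, edgeR). The A libraries lay between 181 and 233 CPM for the called *eef-1A.2* contig, above all AS libraries and partly within the H range, and between 95 and 389 CPM for the transcript of unknown function, from below all AS libraries to above them and below all H libraries. The last of the 5, *C13A6.1*, belongs to the transcripts that had reads in H alone and so met the minimum through H alone.

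Each of these calls was lost when certain single libraries were left out, while every log2 fold change kept its sign (edgeR FDR in brackets). Without AS replicate 3, none of the 8 was called, with the plasminogen-like transcript (0.0559) and *C13A6.1* (0.0606) nearest to the limit. Without H replicate 1, *ttr-35* (0.0859), *rpl-27* (0.137), *ifb-1* (0.115), *ig-h3-like-2* (0.124), *eef-1A.2* (0.173) and the transcript of unknown function (0.143) were lost, and the same 6 were lost without AS replicate 1 (0.0796, 0.194, 0.106, 0.122, 0.174 and 0.13). Without H replicate 3, *rpl-27* (0.149), *ig-h3-like-2* (0.0669), *eef-1A.2* (0.0887) and the transcript of unknown function (0.108) were lost. Without H replicate 2, *rpl-27* (0.102), *eef-1A.2* (0.058) and the transcript of unknown function (0.0511) were lost, and without AS replicate 2 *ig-h3-like-2* (0.0542) and the transcript of unknown function (0.0684).

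**Figure D2:**
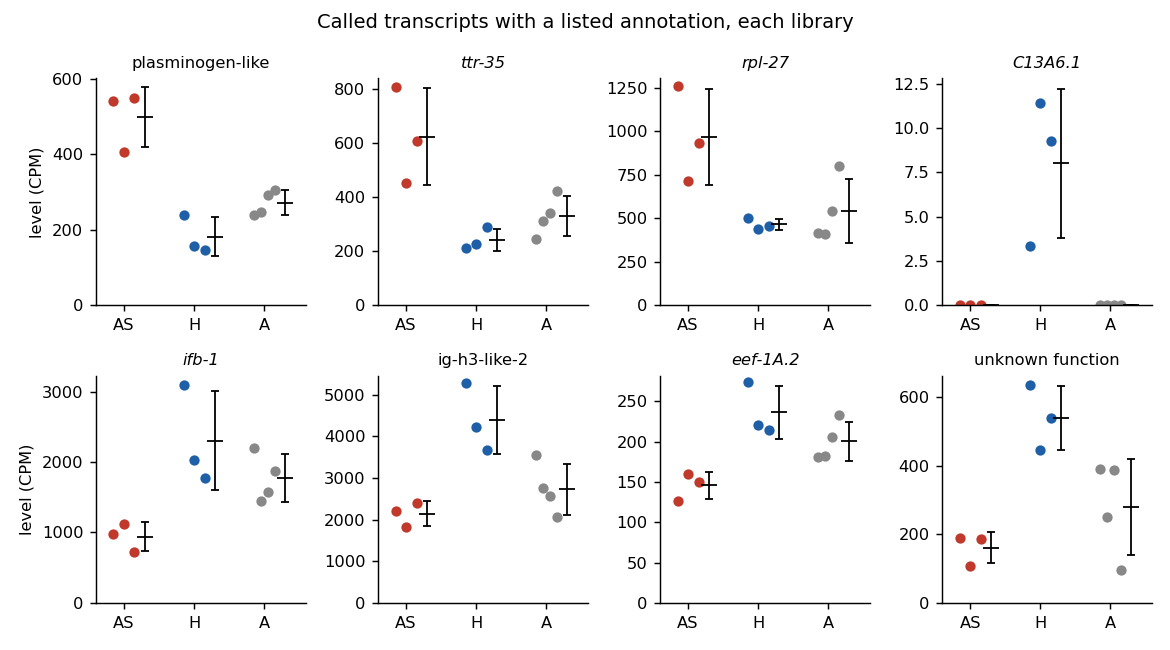
Level in CPM (y axis, from 0) of the 8 called transcripts with a listed annotation in the 3 AS (red), 3 H (blue) and 4 A (grey) libraries, with the mean and SD beside each group. The AS and H points do not overlap in any panel, and in the *C13A6.1* panel all AS and A points lie at 0.

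Reads in all 3 H libraries and in none of the 13 others were found for 8 called transcripts. They held between 13 and 263 reads in each H library and 0 in every AS, A and O library. Only one of them carries a name, *C13A6.1* (DN104631_c0_g1_i1_9dedup, listed as an uncharacterized protein), with 45, 176 and 122 reads in H replicates 1 to 3. Its mean level in H was 8 ± 4.17 CPM (SD, n = 3), which is at least 114-fold higher than in AS when the 3 AS libraries together are set to 3 reads (FDR = 0.0115, edgeR). The other 7 were at least 29.1-fold to at least 176-fold higher by the same bound. All 8 had 0 reads in AS, so they met the minimum through H alone, the condition in which they are high. Their FDRs and fold bounds are therefore no separate support.

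These transcripts did not rank the H libraries alike. The contig DN41100_c0_g1_i1_9dedup had 263, 22 and 212 reads in H replicates 1 to 3, and DN160943_c0_g1_i1_9dedup had 168, 106 and 43. The lowest FDR of the 8 was that of DN17260_c0_g1_i1_9dedup, with 177, 118 and 112 reads (0.00739, edgeR). Summed over the 8, H replicate 2 was the lowest of the 3 H libraries, with 721 reads, and H replicate 1 had 823. In the whole transcriptome, 18 transcripts had reads in all 3 H libraries and in no other library, and the 10 that were not tested had between 3 and 69 reads per H library. No transcript had reads in all 3 AS libraries and in no other. What these contigs are was not tested. A ninth tested transcript with 0 reads in AS (DN41916_c0_g1_i1_9dedup) was just inside the minimum, with 11, 15 and 17 reads in H, had 11 reads in A and 14 in O in all, and missed the limit (FDR = 0.0504, edgeR).

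**Figure D3:**
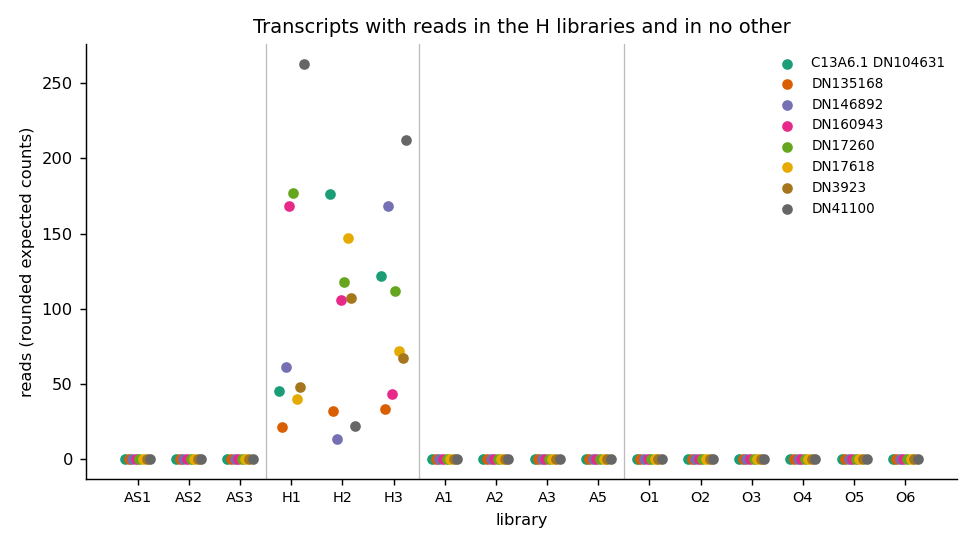
Reads (y axis, rounded expected counts) of the 8 called transcripts with reads in H only, by library (x axis), each transcript in its own colour. The points lie between 13 and 263 in the 3 H libraries and at 0 in the 13 AS, A and O libraries.

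The other transcripts with the greatest changes carry no name. Higher in H, DN54371_c3_g1_i3_4dedup had 266, 45.5 and 105 CPM in H and 3.62, 1.75 and 0.81 CPM in AS (log2 fold change -6.08, SE 0.96, FDR = 0.0116, edgeR). DN50807_c0_g2_i1_4dedup had 54.5, 99.6 and 136 CPM in H and 5.39, 1.96 and 2.43 CPM in AS (log2 fold change -4.89, SE 0.76, FDR = 0.0115, edgeR). Rises in AS were smaller than these falls. Upregulated in AS by the most was DN88306_c0_g1_i1_4dedup, with 2.95, 5.11 and 4.52 CPM in AS and 0.371, 0.258 and 0.304 CPM in H (log2 fold change 3.72, SE 0.80, FDR = 0.0322, edgeR). The next was DN126747_c0_g1_i1_9dedup at 0.886, 2.24 and 2.02 CPM against 0.222, 0.194 and 0 CPM (log2 fold change 3.53, SE 0.85, FDR = 0.0452, edgeR). Both rest on few reads, at most 5 per H library. More reads stood behind DN70670_c0_g1_i1_9dedup, with 10.4, 6.23 and 5.47 CPM in AS and 0.667, 0.904 and 0.837 CPM in H (log2 fold change 3.18, SE 0.48, FDR = 0.0107, edgeR), which was called in all 15 alternatives that keep every AS and H library. The 5 largest rises, which also include DN29870_c0_g1_i2_9dedup and DN80216_c0_g1_i2_9dedup with log2 fold changes of 2.68 and 2.54, were all below 11 CPM in every AS library. None had 10 reads in all 3 H libraries, so they met the minimum through AS alone, the condition in which they are high. Their FDRs are therefore no separate support.

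At high levels, the called transcripts higher in AS with the highest mean CPM after *rpl-27* were DN95608_c3_g1_i2_9dedup and DN82509_c0_g1_i5_9dedup. The first had 750, 554 and 675 CPM in AS and 303, 302 and 314 CPM in H (log2 fold change 1.11, SE 0.19, FDR = 0.0147, edgeR), with H libraries that hardly differed from each other. The second had 799, 450 and 685 CPM in AS and 302, 276 and 242 CPM in H (log2 fold change 1.24, SE 0.27, FDR = 0.0348, edgeR). Higher in H, the contig DN54756_c1_g1_i2_4dedup followed *ig-h3-like-2* and *ifb-1*, with 1820, 1550 and 1340 CPM in H and 861, 1060 and 763 CPM in AS (log2 fold change -0.81, SE 0.19, FDR = 0.041, edgeR).

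The annotated transcripts were then described by group, 20 groups with gene names in all, beside the median of 0.00 over all tested transcripts. Ribosomal proteins and the factors that work with the ribosome had medians of opposite sign, and 1 member of each group was called. Of 18 cytoplasmic ribosomal protein transcripts, 17 had a log2 fold change above 0, 7 were higher in every AS library than in every H library, and *rpl-27* alone was called. Over all tested transcripts, 15% were higher in AS and 13.9% higher in H without overlap. These shares are the ones to set beside such counts in every group below. The median of the ribosomal protein group was 0.49. After *rpl-27*, the largest values without overlap were those of *rps-24* (log2 fold change 0.95, SE 0.29, FDR = 0.0903, edgeR), *rpl-33* (0.79, FDR = 0.0939, edgeR) and *rpl-26* (0.78, FDR = 0.0946, edgeR). The small-subunit gene *rps-24* had 1780, 945 and 1220 CPM in AS and 763, 643 and 635 CPM in H. AS replicate 2 stood apart from the other AS libraries here: the median member, relative to its mean over the 6 libraries, was at 0.53, -0.15 and 0.35 log2 units in AS replicates 1 to 3 and at -0.05, -0.31 and -0.35 in H replicates 1 to 3, so AS replicate 2 lay within the H range.

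The 3 translation factor transcripts all lay lower in AS without overlap, where 13.9% of all tested transcripts did so. Besides both *eef-1A.2* contigs, this group holds *pab-1* (DN54797_c2_g1_i1_4dedup), the poly(A)-binding protein that supports translation of mRNA, with 3200, 3330 and 2950 CPM in AS and 5000, 4400 and 4210 CPM in H (log2 fold change -0.52, SE 0.17, FDR = 0.0947, edgeR). One of the 3 was called, and the group median was -0.53.

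Globins bind oxygen, and their transcripts were higher in AS on median. None of the 3 was called. The transcript *glb-14*-like (DN89314_c0_g1_i2_9dedup) was nearest to the limit, with 628, 338 and 505 CPM in AS and 276, 198 and 216 CPM in H (log2 fold change 1.09, SE 0.29, FDR = 0.0627, edgeR). One *glb-1*-like contig (DN51537_c0_g1_i1_4dedup) had 772, 441 and 514 CPM in AS and 308, 240 and 332 CPM in H (log2 fold change 0.97, SE 0.31, FDR = 0.0957, edgeR). A second *glb-1*-like contig (DN84338_c0_g1_i3_9dedup) overlapped between the conditions, with 1820, 1130 and 1520 CPM in AS and 1190, 1010 and 1160 CPM in H (log2 fold change 0.41, SE 0.20, FDR = 0.244, edgeR). AS replicate 1 was the highest of all 6 libraries in each of them.

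The listed energy metabolism transcripts showed small differences and no calls. They are only those with a name in the copies used here, so they do not stand for energy metabolism as a whole. Of 10 transcripts of the respiratory chain, ATP synthase and adenylate transport, 0 were called and 4 were higher in AS without overlap (median 0.17). They include *T02H6.11*, a subunit of the cytochrome bc1 complex (log2 fold change 0.71, SE 0.22, FDR = 0.0943, edgeR), *atp-1*, the alpha subunit of ATP synthase (0.37), *ant-1.4*, an ADP/ATP carrier (0.16), and *ZK673.2*-like, an adenylate kinase (0.56). Glycolysis and gluconeogenesis had 0 of 8 called and a median of 0.02, and only *pgk-1*, phosphoglycerate kinase, did not overlap (0.28, FDR = 0.433, edgeR). In the TCA cycle and propionyl-CoA metabolism, 0 of 10 were called (median 0.05), and members without overlap lay on both sides. Fumarase *fum-1* was at 356, 394 and 346 CPM in AS and 517, 441 and 467 CPM in H (log2 fold change -0.38, SE 0.14, FDR = 0.148, edgeR). Malate dehydrogenase *mdh-1* was lower in one contig (DN51770_c0_g1_i2_4dedup, -0.53) and higher in another (DN94238_c0_g1_i3_9dedup, 0.29), and *sucg-1*, a subunit of succinate-CoA ligase, had a log2 fold change of 0.45. Over these 3 groups, 4 transcripts had an unadjusted p under 0.05, against 3591 of all 16121 tested.

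Sulfurtransferases move sulfur between thiosulfate, glutathione and other acceptors, a late step of mitochondrial sulfide oxidation. All 3 transcripts were higher in every AS than in every H library, as were 15% of all tested transcripts. The differences were small, and 0 were called. The rhodanese-like transcript (DN89863_c1_g1_i4_9dedup) had 245, 187 and 191 CPM in AS and 150, 150 and 152 CPM in H (log2 fold change 0.46, SE 0.19, FDR = 0.181, edgeR). The thiosulfate:glutathione sulfurtransferase-like isoform X2 (DN51130_c0_g1_i7_4dedup) had 100, 57.8 and 81.2 CPM in AS and 51, 51.6 and 57.5 CPM in H (log2 fold change 0.58, SE 0.27, FDR = 0.228, edgeR). The third (DN91419_c2_g1_i4_9dedup) had the smallest value (log2 fold change 0.22, SE 0.14, FDR = 0.396, edgeR). AS replicate 1 gave the highest value in all 3, and AS replicate 2 exceeded the highest H library by less than 1 CPM in the isoform X2 transcript.

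Peroxide detoxification genes all had log2 fold changes below 0, and 0 of 4 were called. The catalases *ctl-1* and *ctl-2*, which break down hydrogen peroxide, overlapped between the conditions (-0.26 with FDR = 0.513 and -0.29 with FDR = 0.358, edgeR), as did the peroxiredoxin *prdx-2* (-0.13). The peroxidasin-like *C46A5.4*-like did not overlap, with 898, 1100 and 1310 CPM in AS and 2220, 1520 and 2230 CPM in H (log2 fold change -0.85, SE 0.32, FDR = 0.143, edgeR).

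All 7 intermediate filament transcripts had log2 fold changes below 0 (median -0.54), 5 of them without overlap, and *ifb-1* was called. A further *ifb-1* contig (DN83970_c0_g1_i1_9dedup) had 5.24, 7.21 and 5.87 CPM in AS and 23.9, 15.2 and 11 CPM in H (log2 fold change -1.45, SE 0.61, FDR = 0.181, edgeR). Another *ifb-1* contig at a much higher level (DN53316_c0_g1_i1_4dedup) overlapped between the conditions. It had 894, 742 and 620 CPM in AS and 1000, 787 and 754 CPM in H (log2 fold change -0.17, SE 0.22, FDR = 0.691, edgeR). The *ifa-1* contig DN92112_c0_g1_i4_9dedup (-0.57) and *ifa-1-2* (DN94755_c1_g1_i4_9dedup, -0.53) were not called. The beta-tubulin *tbb-4*, a microtubule subunit, stood at 912, 1070 and 1210 CPM in AS and 2370, 1590 and 1560 CPM in H (log2 fold change -0.79, SE 0.23, FDR = 0.0748, edgeR). Muscle filament transcripts had values on both sides of 0. Of 18 thick filament transcripts, 15 were above 0 and 3 below (median 0.39), 6 were higher in AS without overlap, and 0 were called. Of 15 transcripts of the thin filament and actin regulators, 9 were above 0 and 6 below (median 0.17), 1 did not overlap, and 0 were called. The largest thick filament value without overlap was that of *mlc-2*, a myosin light chain, with 3180, 2080 and 2460 CPM in AS and 1640, 1070 and 1440 CPM in H (log2 fold change 0.90, SE 0.33, FDR = 0.134, edgeR), followed by an *unc-54* myosin heavy chain contig (DN95524_c1_g2_i3_9dedup, 0.72) and *myo-3* contigs (0.58 and 0.56). The thin filament member without overlap was a tropomyosin *lev-11* contig (DN64032_c0_g1_i1_9dedup, 0.65, FDR = 0.43, edgeR). Its level was low, at 11.9, 9.94 and 9.65 CPM in AS and 7.78, 6.13 and 6.17 CPM in H. A *lev-11* contig at a much higher level (DN53764_c1_g1_i3_4dedup) overlapped, with 2960, 2320 and 2570 CPM in AS and 2490, 1810 and 2330 CPM in H (log2 fold change 0.24, FDR = 0.663, edgeR).

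Yolk proteins, made in the gut of adult females and loaded into eggs, had the lowest group median, -1.23. All 3 transcripts were lower in every AS than in every H library, as were 13.9% of all tested transcripts, and 0 passed the limit. For *vit-6* (DN54667_c1_g1_i1_4dedup) the levels were 5080, 5610 and 3900 CPM in AS and 15600, 11600 and 7200 CPM in H (log2 fold change -1.23, SE 0.34, FDR = 0.0649, edgeR). For *vit-4* (DN95726_c1_g1_i2_9dedup) they were 891, 884 and 606 CPM in AS and 2550, 1990 and 1170 CPM in H (log2 fold change -1.26, SE 0.34, FDR = 0.0632, edgeR), and for *vit-5*-like (DN95726_c0_g2_i2_9dedup) the log2 fold change was -1.14 (FDR = 0.0877, edgeR). In each of the 3, H replicate 1 was the highest and H replicate 3 the lowest of the H libraries.

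The batches were whole worms, so a lower level of the genes of a cell type can mean fewer such cells or less RNA in each, which cannot be told apart. The summed level of the 3 yolk transcripts was between 5678 and 8210 CPM in AS and between 10450 and 22520 CPM in H, and that of 3 calexcitin transcripts of the nervous system between 825.9 and 1332 CPM in AS and between 542.8 and 770.9 CPM in H. Most of the calexcitin sum came from *cex-2*-like, at 754, 461 and 641 CPM in AS and 367, 284 and 258 CPM in H. It alone of the 3 did not overlap, and the other 2 did. In the same signalling group, *cal-5* lay below 0 (log2 fold change -0.24). The sums of 5 histone transcripts overlapped (463.3 to 512.1 CPM in AS and 426.2 to 560.3 CPM in H), as did those of the thick filament (17300 to 23020 CPM in AS and 13890 to 21520 CPM in H) and of the thin filament group (14030 to 19760 CPM in AS and 12220 to 17360 CPM in H). The 1 cuticle collagen transcript tested ranged from 1147 to 2475 CPM in AS and from 674.6 to 4566 CPM in H. None of these lists was at 0 in any library, and the part of batch make-up in the called transcripts was not tested.

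Among matrix, chaperone and histone genes, members had values on both sides of 0. *ost-1*, the collagen-binding protein SPARC of basement membranes, stood at 3140, 2080 and 2080 CPM in AS and 1320, 730 and 1520 CPM in H (log2 fold change 1.03, SE 0.43, FDR = 0.178, edgeR), opposite to *ig-h3-like-2* and not called. Of 9 chaperone and protein folding transcripts, 0 were called, 2 were higher in AS and 3 higher in H without overlap (median -0.23). The small heat shock protein *hsp-12.2* had 1110, 756 and 1070 CPM in AS and 592, 365 and 501 CPM in H (log2 fold change 1.01, SE 0.30, FDR = 0.082, edgeR). The mitochondrial chaperonin *hsp-60* (DN48693_c0_g1_i1_4dedup) was at 0.32, the cyclophilin *cyn-7* at -0.23 and an *hsp-3* contig of under 2 CPM in AS and H at -1.47 on the log2 scale. The *hsp-3* contig met the minimum through H alone, the condition in which it is high. Of 5 histones, the variant *htz-1* alone did not overlap, with 145, 92.5 and 129 CPM in AS and 65.3, 62.4 and 82.7 CPM in H (log2 fold change 0.80, SE 0.22, FDR = 0.0649, edgeR).

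Ubiquitin marks proteins for degradation, and sequestosome-1 hands ubiquitinated cargo to autophagy. The 3 polyubiquitin contigs *ubq-1-1*, *ubq-1-2* and *ubq-1-3* overlapped between the conditions, with log2 fold changes of -0.24, -0.22 and -0.24. The transcript *sqst-1*-like overlapped by a small margin, with 1550, 1400 and 2400 CPM in AS and 3940, 2350 and 2960 CPM in H (log2 fold change -0.79, SE 0.26, FDR = 0.106, edgeR). Of the 2 immune effectors, the lysozyme-like protein 5, of a family that cuts bacterial cell walls, had 1310, 979 and 831 CPM in AS and 657, 345 and 432 CPM in H (log2 fold change 1.12, SE 0.31, FDR = 0.0649, edgeR), and the galectin *lec-3*, which binds galactose-containing sugars, had 910, 700 and 857 CPM in AS and 1300, 1060 and 1080 CPM in H (log2 fold change -0.48, SE 0.18, FDR = 0.133, edgeR). Neither overlapped and neither was called.

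In calcium and acetylcholine signalling, 5 of 6 transcripts had values above 0 (median 0.45), and 0 were called. The calexcitin *cex-2*-like, a calcium-binding protein of neurons, had 754, 461 and 641 CPM in AS and 367, 284 and 258 CPM in H (log2 fold change 1.03, SE 0.33, FDR = 0.0992, edgeR). The acetylcholine receptor subunit *acr-16*-like had the largest positive value of the gene-named transcripts, at a low level of 3.84, 2.73 and 2.56 CPM in AS and 0.222, 0.84 and 0.914 CPM in H (log2 fold change 2.19, SE 0.72, FDR = 0.104, edgeR). With 3, 13 and 12 reads in H, *acr-16*-like met the minimum through AS alone, the condition in which it is high. One *ndk-1* contig (DN93568_c0_g1_i1_9dedup), a nucleoside diphosphate kinase, had 222, 137 and 170 CPM in AS and 86, 69.5 and 87.2 CPM in H (log2 fold change 1.13, SE 0.37, FDR = 0.104, edgeR). Another *ndk-1* contig (DN52354_c1_g1_i3_4dedup) overlapped, with 94.9, 98.9 and 97.2 CPM in AS and 95, 87.1 and 96.5 CPM in H (log2 fold change 0.06, FDR = 0.813, edgeR). Of the 21 tested transcripts known only by an automatic orthology match, 0 were called, 2 were higher in AS and 4 higher in H without overlap, all below 7 CPM. They were matches to an HSP70 family member (DN10034_c0_g1_i1_9dedup, -0.40), a kinase and RNA-binding domain protein (DN101885_c0_g1_i1_9dedup, 1.16), a transposon-like protein (DN103018_c0_g1_i1_9dedup, -1.14), POGK (DN105175_c0_g1_i1_9dedup, 2.35), the receptor tyrosine phosphatase *ptp-3* (DN106981_c0_g1_i1_9dedup, -0.53) and an ion channel (DN108087_c0_g1_i1_9dedup, -1.56), given as log2 fold changes. Of these, POGK met the minimum through AS alone, and the transposon-like protein and the ion channel through H alone. For each, that is the condition in which it is high. A further 45 tested transcripts were listed without a gene name, of which the transcript of unknown function was called, 6 were higher in AS and 5 higher in H without overlap (median -0.13). The shares without overlap over all tested transcripts were 15% higher in AS and 13.9% higher in H.

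**Figure D4:**
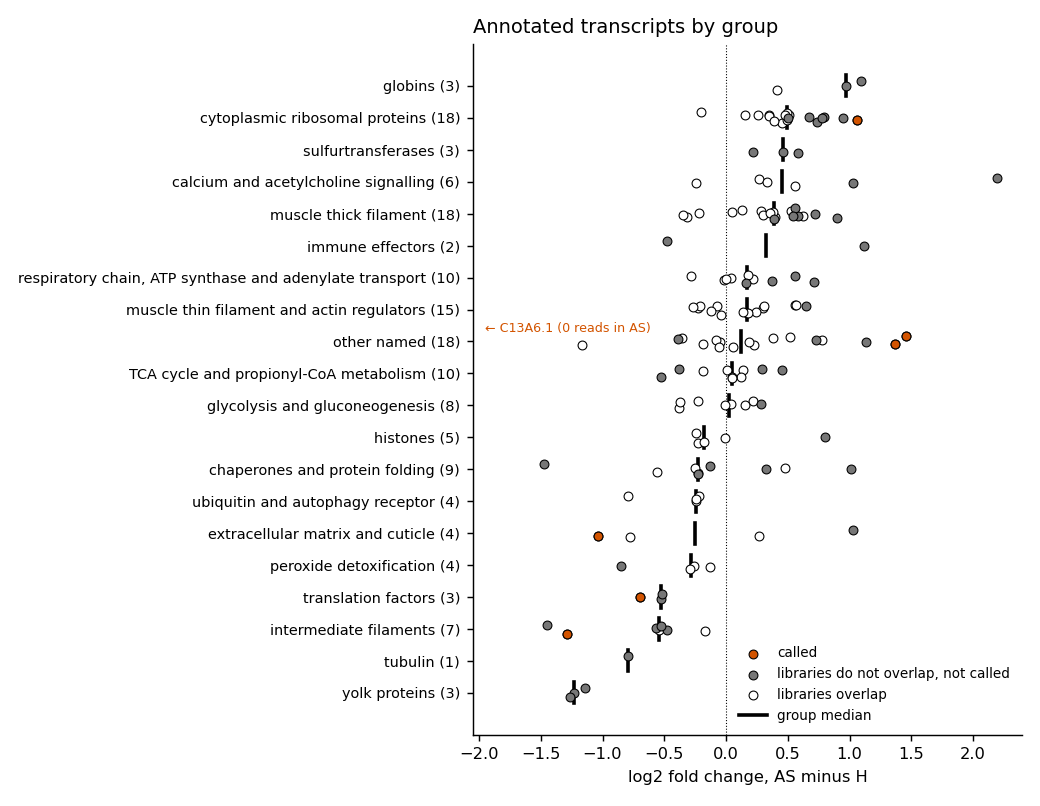
Log2 fold change between AS and H (x axis) of each annotated transcript by group (y axis, number tested in brackets), with the group median as a black bar. Orange points were called, grey points did not overlap between the 3 AS and 3 H libraries, and white points overlapped. Group medians run from -1.23 for yolk proteins to 0.97 for globins, and *C13A6.1* lies off the axis.

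The A and O libraries, which share no library with AS and H, give a second contrast of oxygen absent against present, without sulfide. Calls in the 2 contrasts are not independent. The A libraries entered the fit of AS minus H for its spread, and all 16 libraries entered the fit of A minus O. Of the 482 called transcripts, 8 had no reads in A or O and so no sign. Of the other 474, 228 (48.1%) had the same sign in A minus O, against 47% of the 16113 tested transcripts with reads in A or O, a restriction added after the data were seen. For the transcripts upregulated in AS the share was 48.9% (46.2% of all tested transcripts with that sign) and for those upregulated in H 47.3% (47.7%). Within the 2 A and 3 O libraries that lack a set of additional transcripts (each with fewer than 10 reads in these and the AS and H libraries together), the share was 37.3%, against 41.2% of all tested. Taken over all 482, the share varied with the A libraries used, from 38.8% without A replicate 5 (41.6% of all tested) to 62.4% without A replicate 1 (53.7% of all tested). In A minus O, the annotated calls had log2 fold changes of 0.03 for the plasminogen-like transcript, -0.06 for *ttr-35*, 0.07 for *ifb-1*, 0.06 for *eef-1A.2*, -0.24 for *rpl-27*, 0.00 for *ig-h3-like-2* and -0.27 for the transcript of unknown function, while *C13A6.1* had no reads in A or O.

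In both contrasts, 17 transcripts were called, a count looked at after the data were seen. They are 42.5% of the 40 transcripts (0.248% of all tested) called between A and O and 3.53% of those called between AS and H, all 17 had the same sign in both, and none has an annotation in the shortened copy. Of these, 12 were higher in AS and in A, with log2 fold changes of 0.71 to 2.12 in AS minus H and 0.72 to 1.89 in A minus O. The 5 that were higher in H and in O had log2 fold changes of -6.08 to -1.36 in AS minus H and -5.23 to -0.83 in A minus O. In 14 of the 17, all 7 A and AS libraries lay on one side of all 9 H and O libraries. The 17 were picked by their calls in these same libraries, so this separation is no separate support. In AS minus H, DN52369_c0_g1_i11_4dedup and DN95874_c9_g2_i5_9dedup shared the lowest FDR. The first also had the lowest FDR in A minus O. Scaled over all 16 libraries, it was between 205 and 282 CPM in AS and between 38 and 62.8 CPM in H. On the same scale it lay between 154 and 257 CPM in A and between 49.8 and 77 CPM in O (AS minus H FDR = 0.00655 and A minus O FDR = 0.000483, edgeR). In the other direction, DN95874_c9_g2_i5_9dedup ranged from 9.22 to 14.8 CPM in AS and from 67.5 to 243 CPM in H, and from 7.57 to 16.5 CPM in A and from 40.4 to 285 CPM in O (log2 fold changes -3.72 and -3.24). Within the libraries without the additional transcripts, 0 transcripts were called between A and O by the same edgeR test (924 with an unadjusted p under 0.05).

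**Figure D5:**
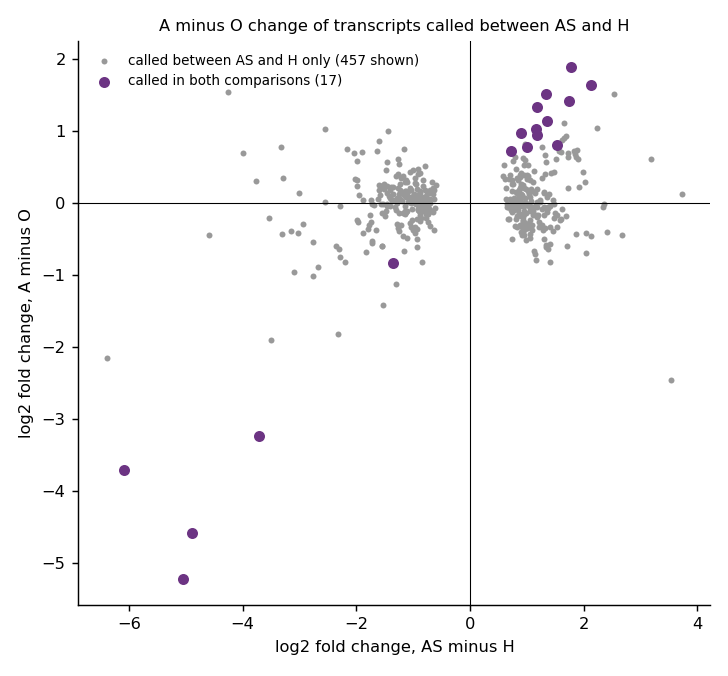
Log2 fold change in A minus O (y axis) against that in AS minus H (x axis) for transcripts called between AS and H, leaving out the 8 with reads in H only. Purple points are the 17 called in both contrasts, which lie in the upper right or lower left, and the grey points spread on both sides of 0 on the y axis.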

How the data were processed

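RNA was extracted from batches of 50 whole worms, depleted of ribosomal RNA and sequenced. Per the labels and methods, reads were checked with FastQC and trimmed with Trimmomatic, and the authors mapped them to the *de novo* transcriptome with Bowtie2 and deposited expected counts per transcript from RSEM 1.3.1. RSEM divides reads shared by similar contigs, so the values need not be whole. The AS and H libraries held between 13155250 and 15123804 reads, and the tested transcripts held nearly all of them. A set of 5499 additional transcripts was found in 5 of the A and O libraries and had fewer than 10 reads each in all other libraries together, AS and H included. Gene names came from copies of the study's supplementary tables, one of them shortened.

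The expected counts were rounded to whole numbers and tested with edgeR 4.0.16 in R 4.3.3 (TMM scaling, quasi-likelihood F-test, 1 mean per condition) over the 10 A, AS and H libraries. Transcripts with at least 10 reads in all 3 AS or all 3 H libraries were tested, and called where the FDR did not exceed 0.05 and the levels differed by 1.5-fold or more. CPM values use the TMM-scaled library sizes, and the standard error is the log2 fold change divided by the square root of F. Nothing says that replicates came from separate collections, so p-values measure the spread between these batches. A minus O was fitted over all 16 libraries on the same transcripts. Scripts were tested on simulated counts with 200 changed transcripts, all above the median level. Of changes by 1 log2 unit, 109 of 200 were called, and 8.4% of the calls were false. For changes by 2 log2 units, these values were 196 of 200 and 5.3%. Tables were built with pandas 2.3.3 and figures with matplotlib 3.10.9 in Python 3.11.15.

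Transcripts were named by rule: all called transcripts with a listed annotation, up to 4 members per gene-named group with the largest change among those without overlap (all members of groups of at most 4), the 5 largest changes and the 3 highest mean CPM among the called in each direction, and members without overlap among those with only an orthology match. The transcripts with reads in H only and those called in both contrasts were named after their values were seen. The members, gene lists and tests were chosen with earlier results of these data known. Alternatives were other scalings (DESeq2 size factors, upper quartile, total counts), 3 other filters, DESeq2 1.42.0, 2 other edgeR tests, no fold limit, 3 other sets of libraries, a block for the replicate number, and the omission of each library. Transcripts below the minimum were not tested. Sequences and transcript lengths were not used here.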

Additional observations from a re-analysis of the deposited data

Results flagged for a closer look

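Of 15 sets of 4 A libraries examined, 1 had a library far from the others. For DN54756_c1_g1_i2_4dedup, which was upregulated in H, A replicate 1 was at 1510 CPM and the other A libraries between 1150 and 1190 CPM. The gap was 0.9 of the range, where the 95% critical value for 4 libraries is 0.829, and chance gives about 1 such set in 20. The groups of 3 libraries were too small for this check.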

How the results depend on the processing

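The 482 calls between AS and H kept their sign in every alternative that tested them. Their number became 202 without a filter on low counts, 1329 by DESeq2, 1176 by edgeR's likelihood ratio test, 29 in a test against a change of 1.5-fold, 757 with only the AS and H libraries and 944 without A replicates 3 and 5. Leaving out 1 AS or H library gave 0 to 786. Same-numbered AS and H libraries deviated together with correlations of -0.019 to 0.046. These values show no pairing by replicate number, but with 3 libraries per condition they cannot exclude one. With the replicate number as a block, 963 transcripts were called over A, AS and H and 835 over AS and H alone. The 8 annotated calls became 4 without a filter and 1 in the test against a change of 1.5-fold, and 0 to 6 when 1 library was left out. The share of all 482 called transcripts with the same sign in A minus O, 47.3%, was 36.7% in the libraries without the additional transcripts and 38.8% to 62.4% when 1 A or O library was left out. Of 200 group medians under alternatives, 199 moved by less than the spread between libraries, and the median of extracellular matrix and cuticle was -0.03 without H replicate 3. The causes of these shifts were not tested. With 3 libraries per condition, and few reads behind low transcripts, a missed threshold does not show that AS and H were alike.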
